A study of Homo sapiens with 12 samples.

Results

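The interleukin-1 (IL-1) family ligands and receptors were followed in HT1080 cells, a human fibrosarcoma line, under a phorbol ester and a plant lectin. The set is defined by gene symbol, not by a threshold on the measured values, but was chosen with earlier results of these data known. It holds 8 genes: the ligands IL1A, IL1B and IL33, the antagonists IL1RN and IL36RN, and the receptor chains IL1R1, IL1RAP and IL1RL1. Of these 8 genes, 7 had a row in both expression tables and IL1RL1 was not listed in either, out of 16633 genes listed in at least 1 table. RNA sequencing of polyadenylated RNA gave 12 libraries in 4 groups of 3, all from wild-type HT1080 cells. In the PMA experiment, 3 libraries came from cells treated for 24 h with PMA (phorbol 12-myristate 13-acetate), an activator of protein kinase C, at 40 nM, and 3 from untreated controls. In the ConA experiment, 3 libraries came from cells treated for 24 h with the mannose-binding lectin concanavalin A (ConA) at 40 µg/mL, and 3 from a separate set of untreated controls, numbered 4 to 6. All groups shared the culture, which was 1000000 cells seeded in a 10 cm dish in biotin-depleted medium with 10% serum, and 3 days later the same kind of medium with 1% serum for the 24 h of treatment. The line is of a single tumour origin, and the labels do not say whether the 3 libraries of a group came from separate cultures, so p-values measure the spread between these libraries, which may be technical.

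IL-1 family ligands signal through paired receptor chains with an intracellular TIR domain, which recruit the adaptor MYD88 and IRAK kinases and lead to NF-kB and MAP kinase activation. IL1A and IL1B both act on IL1R1 with IL1RAP as the accessory chain, while IL33 acts on IL1RL1 (also called ST2) with the same accessory chain. IL1RN and IL36RN encode receptor antagonists that occupy IL1R1 and the IL-36 receptor without signalling. Mature IL1B is made by caspase-1 cleavage in the inflammasome, so a transcript level says nothing of secreted cytokine. Fibroblasts and fibrosarcoma cells are known both to make IL-1 and to respond to it with chemokines and IL-6.

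Values are normalized counts, which are reads per gene divided by 1 scaling factor per library and not by gene length, and each table was normalized on its own. The estimated depth was 33649194 to 45587900 reads a library. All 8 mesenchymal markers were listed, with summed levels of 485014 to 512232 normalized counts over the PMA table and 431400 to 645246 over the ConA table, where the 3 ConA libraries were the lowest, and 2 of 8 were called lower in each table. Leukocyte markers were also present in the PMA table, where 9 of 14 were listed and summed to 938 to 1021 in controls and 1076 to 1549 with PMA, the highest in PMA replicate 3. These included PTPRC (168 to 328 with PMA, 176 to 187 in controls, overlapping) and CD3E (176 to 233 with PMA, 110 to 125 in controls). CD14 and SPI1 were among those not listed. With ConA and its controls 4 of 14 were listed, PTPRC, CD3E, CD2 and CD14 not among them, and summed to 455 to 494 in controls and 394 to 462 with ConA. Within that sum CSF1R was lower with ConA (log2 fold change -0.46) and ITGAM higher, from 1.04, 3.00 and 7.01 to 32.0, 35.5 and 20.7 (2.88, limma adjusted p = 0.000134). None of the leukocyte markers was called in either table. Of 8 epithelial markers, 6 were listed in the ConA table, where TP63 was called higher (0, 0 and 2.00 to 39.1, 32.4 and 39.5) and KRT10 lower (-1.17), and 2 in the PMA table, where IVL (0.93) and KRT10 (-0.08) were not called. In ConA controls the mean was 0.67 normalized counts for TP63 (2 estimated reads in all) and 3.69 for ITGAM. Both were tested only because their ConA levels were high. The part of the mesenchymal, leukocyte and epithelial markers in the values below was not tested. In ConA replicate 1 the level was the lowest of the 3 ConA libraries for 7 of 7 listed members, and for 71.1% of the 882 genes called higher with ConA. In bulk RNA a change in the number of cells that express a gene and a change in RNA per cell cannot be told apart.

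A gene was called higher or lower where its log2 fold change was at least 1 in size (a 2-fold change) and its adjusted p at most 0.0001, by limma on log2(value + 1) with Benjamini-Hochberg adjustment over all genes tested. With PMA, 5 of the 7 listed members were called higher and 0 lower, beside 4.03% of 15153 genes called higher and 4.61% called lower. With ConA, 4 of 7 were called higher and 0 lower, beside 5.83% of 15139 genes called higher and 2.88% called lower. Treated values lay wholly outside the control range for 7 of 7 in either table, where this held for 67.9% of all tested genes with PMA and 69.3% with ConA. IL1RN and IL36RN had control means under the filter of 10 and were tested only because their treated levels were high. The members were also chosen with earlier results of these data known, so the counts over members are a description. For a single gene, 3 libraries against 3 cannot give a two-sided exact permutation p below 0.1.

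**Figure D1:**
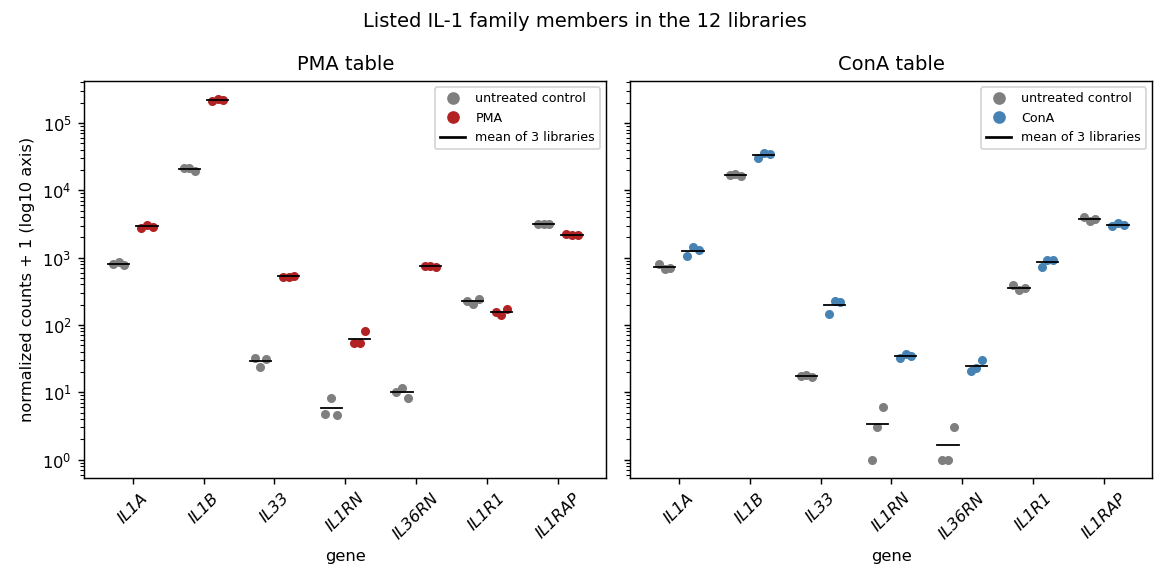
Normalized counts plus 1 (log10 axis) of the 7 listed members in every library of the PMA table (left) and the ConA table (right); points are libraries and bars the means of 3. Treated and control points do not overlap for any of the 7 genes in either table, and IL1B is the highest in every group.

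The 250 bases before the upstream-most RefSeq start of the 5 members that encode ligands or antagonists are shown. Start regions are where AP-1, NF-kB and C/EBP factors are known to act on cytokine genes. These 5 were called with at least 1 treatment, as was IL1R1, whose window is not shown. All 8 members had an entry in the RefSeq promoter table (GRCh38.p14, 17 starts in all). Sequences run 5′ to 3′ on the gene's strand, and capitals mark a match on either strand to the AP-1 motif TGANTCA or the C/EBP motif TTGCNNAA, or to the NF-kB consensus.
IL1A, chr2:112784494-112784743, minus strand: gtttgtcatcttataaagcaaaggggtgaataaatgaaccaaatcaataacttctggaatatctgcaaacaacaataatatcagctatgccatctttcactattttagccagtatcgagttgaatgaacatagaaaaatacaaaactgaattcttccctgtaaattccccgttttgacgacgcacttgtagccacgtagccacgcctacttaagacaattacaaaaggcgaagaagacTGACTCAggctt
IL1B, chr2:112836780-112837029, minus strand: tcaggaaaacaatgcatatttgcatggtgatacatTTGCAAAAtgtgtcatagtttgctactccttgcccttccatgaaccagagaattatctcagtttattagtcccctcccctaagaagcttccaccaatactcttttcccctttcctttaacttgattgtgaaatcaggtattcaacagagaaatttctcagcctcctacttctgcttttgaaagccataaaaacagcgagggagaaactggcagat
IL33, chr9:6214899-6215148, plus strand: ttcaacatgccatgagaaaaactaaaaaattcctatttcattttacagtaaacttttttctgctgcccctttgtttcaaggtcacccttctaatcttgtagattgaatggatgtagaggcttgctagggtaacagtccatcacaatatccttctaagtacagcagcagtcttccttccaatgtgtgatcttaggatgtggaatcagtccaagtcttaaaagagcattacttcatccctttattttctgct
IL1RN, chr2:113117721-113117970, plus strand: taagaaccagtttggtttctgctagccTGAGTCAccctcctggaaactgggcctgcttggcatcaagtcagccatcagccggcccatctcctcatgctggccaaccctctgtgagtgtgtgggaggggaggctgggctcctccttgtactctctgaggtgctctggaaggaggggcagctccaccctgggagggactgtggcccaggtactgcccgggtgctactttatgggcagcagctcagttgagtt
IL36RN, chr2:113058388-113058637, plus strand: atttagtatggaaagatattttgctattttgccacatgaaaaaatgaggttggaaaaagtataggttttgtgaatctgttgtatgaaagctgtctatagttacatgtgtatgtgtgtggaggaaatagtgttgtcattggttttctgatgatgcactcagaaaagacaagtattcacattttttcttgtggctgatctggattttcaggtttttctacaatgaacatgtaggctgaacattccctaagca
IL1A held 1 AP-1 match, TGACTCA, 12 to 6 bases before the start. The same 7 bases lie 105 to 99 bases before its downstream start, whose window also held TGAGTCA 55 to 49 bases before. IL1RN held 1 AP-1 match, TGAGTCA, 223 to 217 bases before its start. In IL1B the single match was to the C/EBP motif, TTGCAAAA, 215 to 208 bases before the start. The NF-kB consensus was found in 0 of the 8 upstream-most windows. In the same window of 27305 genes, the AP-1 motif was present in 6.57%, the NF-kB consensus in 5.07% and the C/EBP motif in 9.12%. IL33 and IL36RN held none of these letters, nor did the upstream-most windows of IL1R1, IL1RAP and IL1RL1, which are not shown. The downstream start of IL1RL1, a gene not listed in either table, held 1 AP-1 match, TGATTCA, 191 to 185 bases before. This says nothing of the factors, and no binding was measured.

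IL1A and IL1B, the agonists of the IL-1 receptor, rose with PMA, by 3.62-fold and 10.5-fold, while with ConA their levels were 1.73-fold and 1.97-fold those of controls, under the 2-fold threshold. IL1B was already among the abundant transcripts of the untreated cells. Its control libraries of the PMA table held 21691, 21670 and 19385 normalized counts, and the PMA libraries 212324, 226734 and 217958. Each PMA library therefore lay far above each control (log2 fold change 3.39, SE 0.053, limma adjusted p = 1.62e-12). With ConA the level went from 16962, 17601 and 16464 to 30676, 35421 and 34282. The groups were again apart, by a log2 fold change of 0.97 (SE 0.061, limma adjusted p = 6.58e-09), which was not called. Without ConA replicate 1 the value was 1.04 and was called.

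IL1A encodes the ligand that is active without cleavage and can also stay in the nucleus or at the membrane. Its levels with PMA were 2798, 3065 and 2889 against 798, 857 and 766 in controls. Here too the groups did not overlap (log2 fold change 1.85, SE 0.055, limma adjusted p = 1.94e-10). With ConA they were 1055, 1436 and 1277 against 807, 676 and 697. The lowest ConA library stood above the highest control, and the log2 fold change of 0.78 (SE 0.10, limma adjusted p = 1.11e-05) was not called.

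IL33, an alarmin kept in the nucleus until cells are damaged, rose with both treatments from low levels. In the PMA table it went from 31.3, 22.4 and 29.8 normalized counts to 521, 515 and 534, an 18.8-fold difference of means. The PMA libraries were close to each other and all far above the controls (log2 fold change 4.20, SE 0.14, limma adjusted p = 4.24e-10). With ConA it went from 16.7, 17.0 and 16.0 to 145, 229 and 215, an 11.8-fold difference. ConA replicate 1 was lower than replicates 2 and 3 and still well above the controls (log2 fold change 3.46, SE 0.20, limma adjusted p = 2.52e-09). Its specific receptor chain IL1RL1 was not listed in either table. Every listed gene held about 10 or more estimated reads in at least 1 library. Whether all genes with that many reads were listed is not known, so the level of IL1RL1 is not known either.

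The antagonist IL36RN had the largest fitted log2 fold change among the members with PMA, and also with ConA at the pseudocount of 1, though not at 10, where its ConA value was 1.66. With PMA the level went from 9.22, 10.7 and 7.22 normalized counts to 756, 753 and 728, an 82.3-fold difference of means. The 3 PMA libraries were nearly level (log2 fold change 6.23, SE 0.15, limma adjusted p = 4.00e-11). In the ConA table the controls held 0, 0 and 2.00, which was 2 estimated reads in all, and the ConA libraries 20.03, 21.9 and 29.7, or 74 reads. Adjusted for depth, the ratio of reads was 35.7 with a 95% interval of 9.53 to 300.0 for counting error only. The fitted log2 fold change was 4.09 (SE 0.57, limma adjusted p = 2.26e-05) and depends on the pseudocount at such levels. Without ConA replicate 2 it was no longer called, with an adjusted p of 0.000290.

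IL1RN, the IL-1 receptor antagonist, rose from near the detection limit in both tables. With PMA it went from 3.69, 7.15 and 3.61 to 53.4, 52.3 and 79.0 normalized counts. The highest library was PMA replicate 3, and no PMA library came near the controls (log2 fold change 3.45, SE 0.33, limma adjusted p = 3.43e-06). With ConA it went from 0, 2.00 and 5.01 to 31.0, 36.6 and 34.1. The ConA libraries were alike and all above the controls (log2 fold change 3.73, SE 0.56, limma adjusted p = 4.39e-05). This call was lost without any single ConA library or without ConA control 5, where the adjusted p was 0.000108 without ConA replicate 1, 0.000475 without replicate 2, 0.000488 without replicate 3 and 0.0001005 without the control.

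The receptor chain IL1R1, which binds IL1A, IL1B and IL1RN, was called higher with ConA and not called with PMA. In the ConA table the controls held 386, 329 and 355 normalized counts and the ConA libraries 726, 907 and 919. All ConA libraries lay above the controls (2.39-fold, log2 fold change 1.25, SE 0.099, limma adjusted p = 7.90e-08). In the PMA table the direction was the opposite, from 228, 202 and 241 in controls to 156, 142 and 169 with PMA. Those groups were also apart, and the log2 fold change of -0.52 (SE 0.11, limma adjusted p = 0.00132) was not called. An antisense gene, IL1R1-AS1, overlaps IL1R1 on the opposite strand, and strand use in the counting is not given in the sources used here.

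IL1RAP, the accessory chain shared by the receptors for IL1A, IL1B, IL33 and the IL-36 ligands, was not called with either treatment. The PMA libraries held 2249, 2182 and 2146 normalized counts against 3106, 3116 and 3151 in controls. They were lower in each library, by a log2 fold change of -0.51 (SE 0.039, limma adjusted p = 5.11e-07) that was short of 2-fold. With ConA the levels were 2995, 3258 and 3051 against 4018, 3465 and 3715 in controls (log2 fold change -0.27, SE 0.062, limma adjusted p = 0.00185).

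Whether PMA and ConA changed a member unequally was tested as the log2 fold change with PMA minus that with ConA, in a limma fit of all 12 libraries. Treatment and experiment cannot be told apart in this difference, since each agent was used in 1 experiment. It passed both thresholds for 3 of 7 members, beside 10.6% of 15030 genes. IL1B changed more with PMA, by 2.42 (SE 0.084, limma adjusted p = 9.36e-14), and IL1A by 1.07 (SE 0.13, limma adjusted p = 1.60e-06). The IL1A difference was under the threshold without ConA replicate 1 (0.95) or ConA control 4 (0.99). IL1R1 differed in the other direction, by -1.77 (SE 0.15, limma adjusted p = 1.95e-08), which was negative with every library left out in turn.

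The other members did not pass. IL33 gave 0.74 (SE 0.24, limma adjusted p = 0.0141) and IL1RAP -0.25 (limma adjusted p = 0.00912). IL36RN gave 2.14 (SE 0.50, limma adjusted p = 0.00140), a value that ran from -0.05 with a pseudocount of 0.1 to 3.65 with a pseudocount of 10, where it passed (limma adjusted p = 1.38e-10). For IL1RN the difference was -0.28 (SE 0.70, limma adjusted p = 0.748), and its sign turned under several settings, to 0.41 with a pseudocount of 10, to 0.59 with quantile normalization and to 0.42 without ConA control 4.

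**Figure D2:**
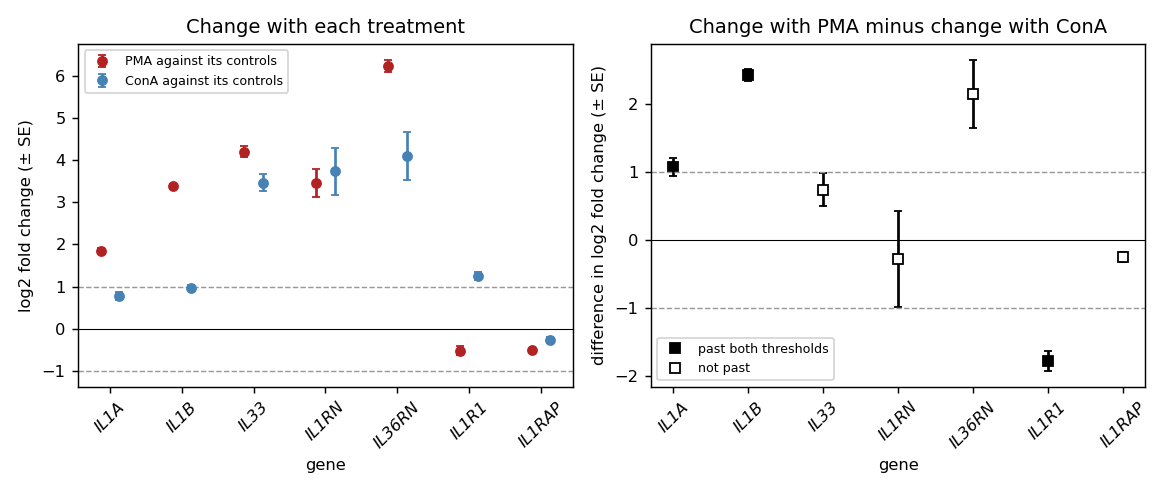
Left, log2 fold change (± SE) of each listed member with PMA and with ConA against its own controls; right, the PMA value less the ConA value (± SE), filled where both thresholds were passed. IL1B (2.42) and IL1A (1.07) lie above the dashed line at 1 and IL1R1 (-1.77) below that at -1, while the open point of IL36RN has a wide error.

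Levels between members were compared per kilobase (kb) of exon, using exon lengths of GENCODE v29. In PMA controls the mean level was 12824 normalized counts per kb for IL1B, 380 for IL1A, 314 for IL1RAP, 35.4 for IL1R1, 10.3 for IL33, 3.23 for IL36RN and 2.08 for IL1RN. Each neighbour in that order was apart in every library except the antagonist pair, whose ranges overlapped. With PMA, IL1B stood at 134277 per kb and took rank 3 of 15240 genes, from rank 123 in its controls, and its share of all normalized counts was 0.545% against 0.0566%. IL36RN, at 266 per kb, now stood above IL1RAP (220), IL33 (193), IL1RN (26.6) and IL1R1 (24.6), and only the ranges of IL1RN and IL1R1 overlapped.

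In ConA controls IL1B was at 10429 per kb, and IL1RAP (375) and IL1A (342) overlapped, as did IL1RN (1.01) and IL36RN (0.24). With ConA the order was IL1B (20515), IL1A (591), IL1RAP (312), IL1R1 (135), IL33 (72.4), IL1RN (14.7) and IL36RN (8.51), with no overlap between neighbours. IL1B was at rank 79 of 15157 genes with ConA and 203 in its controls. Per kb, IL36RN was thus at the bottom of the order with ConA and above both receptor chains with PMA. Its place above IL1RAP with PMA rests on exon length, 2806 bases against 9945 for IL1RAP. In normalized counts IL1RAP was the higher of the pair with PMA, at a mean of 2192 against 746. The tables were normalized apart, so levels are not compared between them.

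Ratios taken within each library do not depend on its scaling. IL1B exceeded IL1A per kb by 33.8 ± 1.397 (SD, n = 3) in PMA controls and by 97.8 ± 1.30 with PMA. With ConA the same ratio was 35.0 ± 2.87 against 30.7 ± 3.25 in controls, and those ranges overlapped. IL1RAP exceeded its partner IL1R1 by 8.92 ± 0.776 in PMA controls and 9.02 ± 0.870 with PMA, also overlapping. With ConA the accessory chain exceeded IL1R1 by 2.34 ± 0.261, against 6.65 ± 0.0331 in controls, with no overlap. The ratio of IL1B to IL1RN, whose product blocks the receptor of IL1B, was 6747 ± 2156 per kb in PMA controls and 5231 ± 1173 with PMA, with overlapping ranges. With ConA it was 1399 ± 25.4, against 4659 and 12469 in 2 control libraries, and had no value in ConA control 4, where IL1RN was at 0. IL1RN held 7 estimated reads in all over the ConA controls and 16 over the PMA controls. The control values of this ratio therefore rest on few reads.

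**Figure D3:**
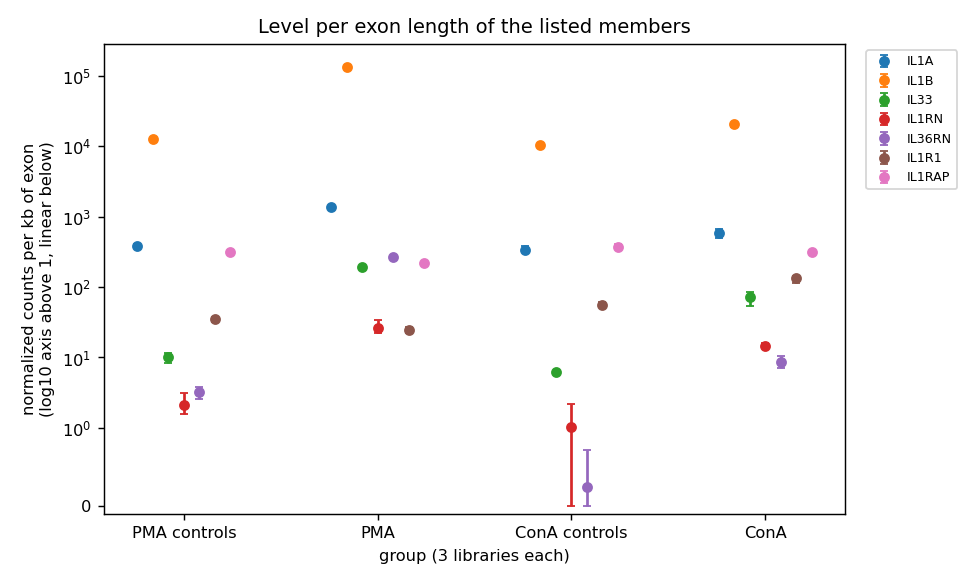
Mean normalized counts per kb of exon of each listed member in the 4 groups (log10 axis above 1, linear below); bars span the lowest to the highest of 3 libraries. IL1B leads in each group, and IL36RN goes from 3.23 to 266 in the PMA table and from 0.24 to 8.51 in the ConA table.

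Most of the ligand genes sit side by side on chromosome 2, and the neighbours in RefSeq order were IL1A, IL1B, IL37, IL36G, IL36A, IL36B, IL36RN, IL1F10 and IL1RN. IL36B, an agonist of the IL-36 receptor, rose with both agents. With PMA it went from 54.4, 42.9 and 61.4 normalized counts to 1496, 1540 and 1400 (log2 fold change 4.79, limma adjusted p = 4.15e-11). With ConA it went from 5.21, 7.004 and 11.0 to 71.1, 79.4 and 74.6 (log2 fold change 3.17, limma adjusted p = 2.73e-07). The groups were apart in both tables, and the change was larger with PMA by 1.62 (limma adjusted p = 7.61e-05).

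IL36G, a further IL-36 receptor agonist, rose with PMA from a mean of 17.5 to 59.4 normalized counts (log2 fold change 1.71, limma adjusted p = 2.71e-05). With ConA its means were 7.08 and 18.7, and the log2 fold change of 1.30 was not called (limma adjusted p = 0.00567). IL37 was listed under the filter, and IL36A, IL1F10 and IL18 were not listed. Among the 2 of 6 other ligands tested, 2 were called higher with PMA and 1 with ConA, where the control means of both were under the filter of 10. Of all tested genes, 4.03% were called higher with PMA and 5.83% with ConA. The genes flanking the cluster were not called: CKAP2L, next to IL1A, had log2 fold changes of -0.09 with PMA and 0.90 with ConA, and PSD4, next to IL1RN, 0.56 and 0.45.

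The receptor cluster, also on chromosome 2, holds IL1R2, IL1R1, IL1RL2, IL1RL1, IL18R1 and IL18RAP in that order. IL1R2 encodes the decoy receptor that binds IL-1 without signalling. Its means were 33.5 and 14.7 normalized counts in controls and with PMA (log2 fold change -1.21, limma adjusted p = 0.00542), and 27.7 and 13.6 in the ConA table (log2 fold change -1.03, limma adjusted p = 0.0128), neither of them called. IL18R1, the ligand-binding chain for IL-18, rose with ConA from 71.9, 44.0 and 57.1 to 192, 227 and 243 (log2 fold change 1.94, limma adjusted p = 2.62e-07). Its value with PMA was 0.55 and not called, and the difference of -1.39 passed (limma adjusted p = 4.89e-05). IL1RL1 overlaps IL18R1 on the same strand in the annotation, so reads of that region may be shared.

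IL18RAP, the IL-18 accessory chain, was listed in the ConA table alone, where it rose from 1.04, 0 and 1.00 to 31.0, 37.6 and 42.2 (log2 fold change 4.56, limma adjusted p = 1.15e-06). Its controls held 2 estimated reads in all, so it too was tested only because the ConA level was high. IL18BP, a secreted IL-18 inhibitor encoded elsewhere, rose with ConA from 62.5, 67.0 and 71.1 to 1413, 1811 and 1960 (log2 fold change 4.66, limma adjusted p = 1.98e-13). With PMA it stood at 94.0, 102 and 95.8 against 94.97, 135 and 109, groups that overlapped, and the difference between the agents was -4.86 (limma adjusted p = 4.95e-13). IL1RAPL1, a related chain known from neurons, rose with PMA by a log2 fold change of 2.11 (limma adjusted p = 3.80e-06), and its ConA value of 0.96 was not called. SIGIRR, an inhibitory member of the receptor family, was not called with PMA (-0.61) or ConA (0.10). Over the other receptors and soluble inhibitors, 1 of 5 tested genes was called higher with PMA and 3 of 6, IL18RAP among them, with ConA, and 0 were called lower in either. Of all tested genes, 4.03% were called higher and 4.61% lower with PMA, and 5.83% and 2.88% with ConA.

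**Figure D4:**
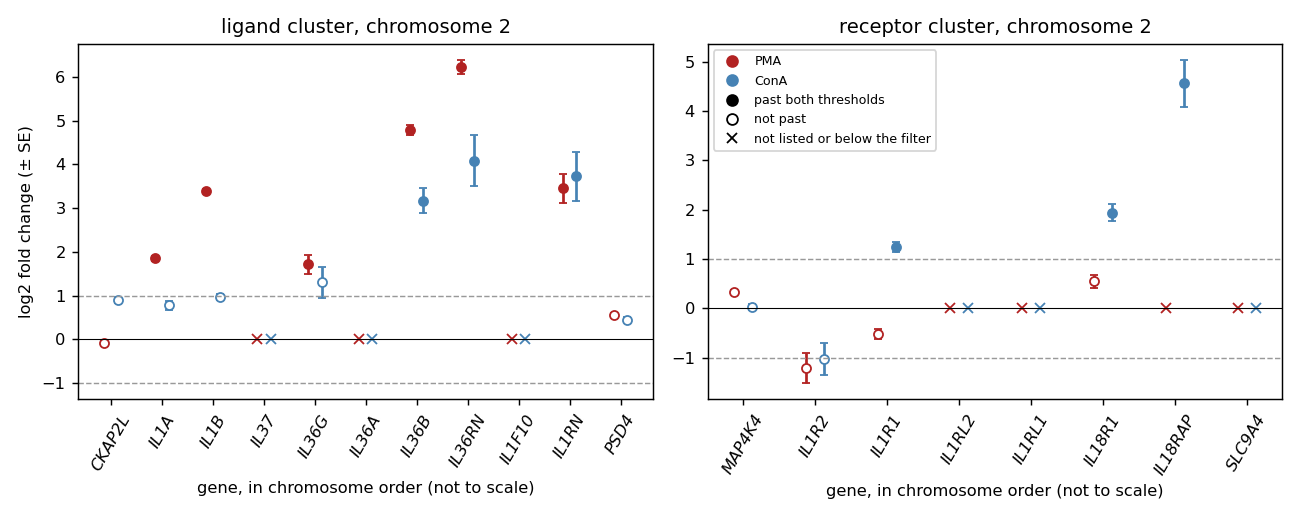
Log2 fold change (± SE) with PMA and ConA of the genes of the ligand cluster (left) and the receptor cluster (right) in chromosome order, with a flanking gene at each end; filled points passed both thresholds and crosses mark genes not listed or under the filter. In the ligand cluster the filled points include IL1B (3.39), IL36B (4.79) and IL36RN (6.23) with PMA, and in the receptor cluster all filled points, IL1R1 (1.25), IL18R1 (1.94) and IL18RAP (4.56), are of ConA.

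The kinases and adaptors downstream of these receptors were called at about the share of all genes given above. Of 17 listed by role, 16 were tested, and with PMA 1 was called higher (IRAK2, 1.25) and 1 lower (PELI3, a ubiquitin ligase for IRAK proteins, -1.02), with a median log2 fold change of 0.11 beside 0.00 over all genes. With ConA, IRAK2 (1.60) was the 1 gene called of 16, and the median was 0.10. IRAK2 is a kinase of the receptor complex that is itself known to be induced by IL-1. IRAK3 was not listed.

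The next list held genes that process or release the ligands. With ConA 5 of 15 tested were called higher and 0 lower (median 0.66), beside 5.83% of all genes called higher. They were MEFV (4.72) and AIM2 (2.29), which sense danger signals and build inflammasomes, CASP1 (2.20), the protease that cleaves IL1B, CASP8 (1.14) and NLRP3 (1.04). MEFV held 3 estimated reads over its controls and was tested only because its ConA level was high. With PMA 2 of 14 were called higher, NLRP3 (2.49) and CASP4 (1.11), with a median of 0.10, beside 4.03% of all genes. CASP1 held 468, 526 and 466 normalized counts in ConA controls and 2143, 2191 and 2371 with ConA, against 335, 306 and 319 and then 371, 433 and 446 in the PMA table. The difference between agents passed for 5 of 14 tested genes, beside 10.6% of all genes, higher with PMA for NLRP3 (1.45) and higher with ConA for AIM2 (-2.90), CASP1 (-1.82), GSDMD (-1.05) and CASP8 (-1.04).

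Among 22 genes known to be induced by IL-1, 17 of 20 tested were called higher with PMA (median 2.26) and 12 of 18 with ConA (median 2.14), with 0 called lower, beside 4.03% and 5.83% of all genes called higher. The largest values with PMA were those of the chemokines CXCL8 (5.80) and CXCL3 (5.63) and the cytokines IL6 (5.56) and CSF3 (5.05), of which CSF3 was tested only because its PMA level was high (5 estimated reads over the controls). With ConA they were the adhesion molecule ICAM1 (5.33), the mitochondrial dismutase SOD2 (4.56), and BIRC3 (4.11) and TNFAIP3 (4.09), which act in NF-kB signalling. The difference between agents passed for 10 of 18, beside 10.6% of all genes, with 6 higher with PMA and 4 higher with ConA. CSF2, called with ConA, and CXCL1, not called with PMA, had control means of 9.76 (ConA table) and 9.05 (PMA table). Both were likewise tested only because the treated levels were higher. IRAK2, called higher with both agents, is counted in this list and also in that of kinases and adaptors. The genes of this list also respond to other stimuli, the list was made with results of these libraries known, and whether IL-1 took part was not tested.

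The genes whose pattern lay nearest to each called member were found by the root mean square (rms) difference over the 12 libraries, each set against the mean of its own controls on the log2 scale, among 14660 genes. IL1A lay nearest to ADGRL4 (rms 0.101), PRDM1 (0.103) and ARID3B (0.111), and IL1B to INHBA (0.122), TNFSF15 (0.183) and EGR1 (0.194). IL33 lay nearest to EHF (0.243), GPR84 (0.310) and ICAM4 (0.344). For IL1R1 these were ZNF823 (0.0913), APOBEC3D (0.0985) and JADE2 (0.1001). The antagonists had no gene as near: for IL36RN the nearest were CXCL8 (0.484), IL6 (0.552) and ZP4 (0.684), and for IL1RN they were ABCC9 (0.598), TNFAIP3 (0.614) and N4BP3 (0.621). The low control counts of both antagonists enter these differences.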

How the data were processed

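Polyadenylated RNA of 12 HT1080 libraries was sequenced by a service company. The signal values that the authors deposited are counts per gene symbol after normalization, made by dividing each library by 1 factor in each table apart. The submitters' processing notes name Partek, Bowtie2, STAR and DESeq2 and the builds hg19 and mm10 without roles, and the annotation is not given in the sources used here. Whole reads could not be recovered for all genes (80.0% to 82.3% of values between 5 and 60 were whole within 0.02), so no count test was run, and depths are estimates. Each table was tested with limma 3.58.1 (R 4.3.3) on log2(value + 1) with a variance trend, for genes with a mean of at least 10, with Benjamini-Hochberg adjustment. Log2 fold changes are on that scale, which understates those of low genes. Values written as fold are ratios of the mean normalized counts, with nothing added. The difference between treatments used genes in both tables. It was tested on simulated data first. The members, lists and thresholds were chosen with earlier results of these data known. Named genes are all members, every other listed family gene, up to 4 largest calls of each list and treatment, and the 3 nearest patterns of each called member. MYD88, IRAK1, CXCL1, CXCL2, CSF2, GSDMD, the NLRP3 value with ConA, the genes named for a difference between agents and the single markers were named after their values were seen. Endothelial markers (4 of 6 listed in each table, 0 called) and epithelial markers were also examined. Alternatives varied the pseudocount, filter, scaling, variance trend, fit, threshold, replicate block and libraries. Python 3.11.15 with pandas 2.3.3, numpy 2.4.6 and matplotlib 3.10.9 made the tables and plots.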

Additional observations from a re-analysis of the deposited data

Results flagged for a closer look

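For 3 members the response to the 2 agents differed by limma's test of the difference itself (change with PMA minus change with ConA, log2, 3 libraries a group): IL1B by 2.42, IL1A by 1.07 and IL1R1 by -1.77. IL1B and IL1A were higher in 3 of 3 treated libraries than in any control with both agents. IL1R1 was lower in 3 of 3 PMA libraries and higher in 3 of 3 ConA libraries than in any of their controls. Such separation held for 67.9% of all tested genes with PMA and 69.3% with ConA, so it does not mark these members out. The difference passed both thresholds for 10.6% of 15030 genes. The agents were used in separate experiments, so agent and experiment cannot be told apart.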

How the results depend on the processing

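With PMA, 5 members were called higher under each alternative except 2: 4 were called with a mean of at least 50, where IL1RN was not tested, and 4 without the variance trend, where IL1RN was lost (adjusted p = 0.000226). With ConA, the count of 4 called higher became 2 with a mean of at least 50, where the antagonists were not tested, 2 with a pseudocount of 0.1, 1 without the variance trend, and 2 to 4 with 1 library left out. IL36RN fell under the filter without ConA replicate 3. Without the trend IL33 alone was called with ConA, and IL1R1 had an adjusted p of 0.000298. For the difference, the count of 2 higher with PMA became 1 without the variance trend (IL1A, adjusted p = 0.000196) and ran from 1 to 2 with 1 library left out. It became 3 with a pseudocount of 10 and with the adjusted p threshold set to 0.05, where IL36RN also passed (3.65 and 2.14). The IL1RN difference, which was not called, turned to 0.41 with a pseudocount of 10, 0.59 with quantile normalization and -0.88 to 0.42 with 1 library left out, and the IL36RN difference to -0.054 with a pseudocount of 0.1. Under quantile normalization IL1B passed with ConA (1.07). The labels do not say whether the PMA replicate numbers pair the libraries. Deviations of same-numbered libraries correlated at -0.064, 0.096 and 0.096, which cannot settle it. The fit with the replicate block again called 5 higher and 0 lower. ConA and its controls share no numbers, and no paired fit was possible there. Depth limits IL1RN and IL36RN in controls, with 16 and 30 estimated reads in the PMA table and 7 and 2 in the ConA table over 3 libraries.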

Other observations

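MYD88, the adaptor that the signalling receptors of the family share, was at 10.4 to 21.0 normalized counts in the ConA table and 40.9 to 60.8 in the PMA table. IRAK1, the kinase that acts after it, held 10486 to 16665 in the ConA table and 11731 to 14312 in the PMA table. The annotation used for the counting is not given, and the part of read assignment in the MYD88 values was not tested. Among the IL-1-induced chemokines, CXCL3 rose to 8320, 8836 and 8899 with PMA, while CXCL1 held 13.9, 23.8 and 23.9 in the same libraries and CXCL2 was not listed. These chemokine genes are near copies of each other, and the part of shared reads was not tested.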
